A study of Mus musculus with 8 samples.

Results

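The proximal T cell receptor signalling genes are 40 genes that encode the receptor complex, the kinases, adaptors and effectors next to it, and the negative regulators that act on them. They were taken by symbol from the normalized count table of regulatory T (Treg) cells, and all 40 were among its 52459 rows. All 40 also had a mean of at least 10 normalized counts over the libraries, as did 15419 genes in all. By role, 7 members belong to the receptor and its coreceptors, 5 are kinases or the phosphatase CD45, 8 are adaptors, 8 are effectors and 12 are negative regulators.

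When a T cell receptor binds its ligand, the kinase Lck phosphorylates the CD3 and zeta chains, Zap70 docks on them, and the adaptors Lat and Lcp2 (SLP-76) assemble a complex that activates phospholipase C gamma (Plcg1). Its products release calcium from the endoplasmic reticulum and recruit Rasgrp1 and protein kinase C theta (Prkcq). STIM1 and STIM2 sense the emptied store and open calcium channels of the plasma membrane, a step called store-operated calcium entry, which lies downstream of most of the genes described here. Treg cells are CD4+ T cells that express Foxp3 and suppress other immune cells, and they receive signals through the same receptor.

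RNA was sequenced in 8 libraries of mouse Treg cells of the C57BL/6 strain, 2 for each of 4 groups. Per the methods, CD4+CD25hi YFPcre- cells (WT) and CD4+CD25hi YFPcre+ cells (floxed for Stim1 and Stim2, with Foxp3-YFPcre, called DKO here) were sorted from spleen and lymph nodes of pooled healthy female heterozygous mice. Cre is driven by the Foxp3 promoter, so the WT cells came from mice that carry the same floxed alleles and had not activated the YFPcre copy. Each genotype was left unstimulated or stimulated for 16 h with 1 ug/ml of plate-bound antibodies against CD3 and CD28, which engage the T cell receptor complex and its costimulatory receptor. The question was how loss of store-operated calcium entry alters the transcripts of Treg cells, before and after receptor stimulation. Ages were not given in the sources used here. Per the methods each sample was a pool of several mice, so p-values rest on the spread between pools, shared over the 4 groups, and not between single mice. The unstimulated WT libraries are numbered 3 and 4 and all others 1 and 2, so the unstimulated genotypes share no replicate number. The unstimulated libraries share a lane number and the stimulated libraries share another, so lane and stimulation cannot be told apart. The sources name no cells cultured for 16 h without the antibodies, so receptor stimulation and time in culture cannot be told apart either.

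The libraries held 11851853 to 16306540 reads, and 1 read was worth 0.759 to 1.48 normalized counts (the read count divided by the size factor of its library). The deleted genes did not mark the genotype. Stim1 had 1139 and 1377 normalized counts in unstimulated WT against 1538 and 1868 in unstimulated DKO, and 645 and 673 in stimulated WT against 552 and 642 in stimulated DKO. Stim2 had 906 and 908 against 904 and 744 without stimulation, and 665 and 782 against 620 and 696 with it. Counts over a whole gene cannot show a missing exon, so WT and DKO name the libraries by their labels throughout. The paper reports ablation of both transcripts by RT-PCR in Treg cells of male mice. It also reports that YFP+ Treg cells of female heterozygous mice lacked store-operated calcium entry. Foxp3, the defining factor of Treg cells, was present in every library at 8159 to 11918 normalized counts in WT and 4258 to 7253 in DKO, and 3 of 6 Treg markers passed the test as lower in unstimulated DKO. Both unstimulated DKO libraries stood apart in summed myeloid markers, at 11007 normalized counts in replicate 1 and 1799 in replicate 2, against 202 to 482 in the other libraries. Of the 14 myeloid markers tested, 8 were called higher in unstimulated DKO and 0 lower. The summed B cell markers reached 16468 in unstimulated DKO replicate 1, against 4525 in replicate 2 and 2592 to 7021 in the others. Ighm (immunoglobulin mu) made up most of that B cell sum in every library. The other 15 B cell markers summed to 5376 normalized counts in unstimulated DKO replicate 1. They were also raised in 3 more libraries, at 2528 in stimulated DKO replicate 1, 1799 in stimulated WT replicate 1 and 1246 in unstimulated DKO replicate 2. The remaining 4 had 434 to 663. The 7 summed markers of CD8 T and NK cells had 992 normalized counts in unstimulated DKO replicate 1 and 337 in replicate 2. They had 600 and 241 in stimulated WT, 1190 and 438 in stimulated DKO, and 353 and 306 in unstimulated WT. The part of these other cells in the results was not tested. Leaving out unstimulated DKO replicate 1 keeps the raised myeloid markers of replicate 2 in the group. Counts of members lying apart or of each sign, and for some contrasts called or past an unadjusted p, are also given below with 1 library left out. That library is unstimulated DKO replicate 1 where it enters the contrast, or a stimulated replicate 1 where that enters it.

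Differences were tested with limma on log2(normalized count + 1), and a gene was called where its Benjamini-Hochberg adjusted p over the 15419 genes was under 0.05 and its change exceeded 1.5-fold. In unstimulated cells 6 of the 40 members passed, 3 higher and 3 lower in DKO. Of all genes tested, 1.38% were called higher and 3.35% lower. The 3 that rose were Themis and Tespa1, a pair of adaptors best known from thymocyte selection, and Prkcq. The 3 that fell were Ubash3b (STS-1), a phosphatase that acts on Zap70, the adaptor Sla (SLAP), which promotes loss of the receptor from the surface, and Malt1, the protease of the complex that links protein kinase C theta to NF-kB. In bulk RNA, fewer cells of a type and less RNA per cell cannot be told apart.

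Themis showed the largest rise of a member, with 817 and 841 normalized counts in unstimulated WT and 2406 and 1991 in unstimulated DKO. Both DKO libraries lay above both WT libraries by over 1000 normalized counts. The difference was 1.40 on the log2 scale (SE 0.21, limma adjusted p = 0.00971), a 2.64-fold higher level. Prkcq had 3176 and 3095 in WT and 6329 and 5734 in DKO, again without overlap. Its log2 difference was 0.94 (SE 0.19, limma adjusted p = 0.0252), and the call was lost in 6 of 21 alternatives. Tespa1, whose product binds the inositol trisphosphate receptor, had 458 and 536 in WT and 981 and 879 in DKO. Its log2 difference was 0.91 (SE 0.21, limma adjusted p = 0.0378), and 0.83 without DKO replicate 1. The call of Tespa1 was lost in 8 of 21 alternatives, among them that one.

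Ubash3b had 3448 and 3297 normalized counts in unstimulated WT and 1364 and 1376 in unstimulated DKO. The groups stood far apart and the replicates close together, at a log2 difference of -1.30 (SE 0.18, limma adjusted p = 0.00880). Sla had 7672 and 7368 in WT against 3151 and 3151 in DKO. Its log2 difference was -1.25 (SE 0.15, limma adjusted p = 0.00570), which is 2.39-fold lower. Malt1 had 6780 and 7730 in WT against 4152 and 4123 in DKO, a log2 difference of -0.81 (SE 0.20, limma adjusted p = 0.0465). The Malt1 call lay near the threshold and was lost in 14 of 21 alternatives, among them without DKO replicate 1 (limma adjusted p = 0.0586) and with edgeR's quasi-likelihood test (adjusted p = 0.0606).

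**Figure D1:**
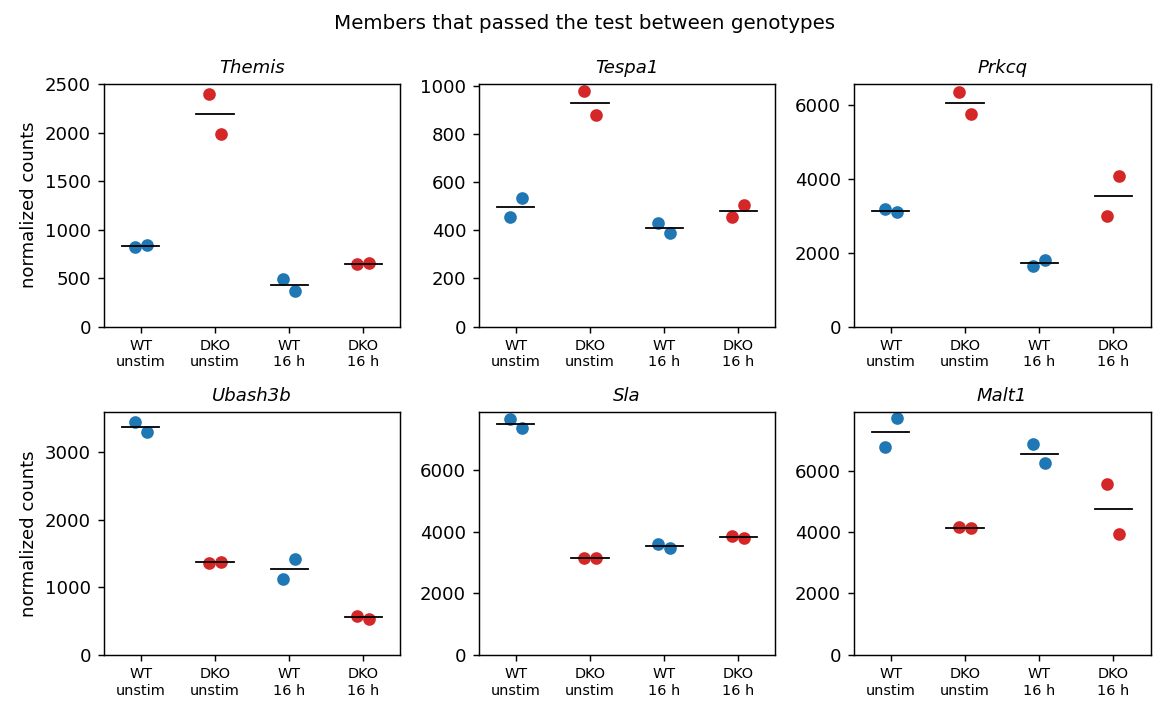
Normalized counts (y axis, linear from 0) of the 6 members called between genotypes in unstimulated cells, in each of the 4 groups (x axis), with a point per library (blue WT, red DKO) and a black line at the mean of 2. Themis, Tespa1 and Prkcq lie higher in unstimulated DKO and Ubash3b, Sla and Malt1 lower, and at 16 h Sla lies at 3465 to 3858 in all 4 stimulated libraries.

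The sequence before the start of 2 of these genes and of Txk, the member with the largest fall on stimulation in WT cells, is shown to set their upstream bases side by side. The set of RefSeq starts used here (build GRCm38.p6) held 33 of the 40 members. It lacked 7 (Pag1, Cd4, Malt1, Sla, Sh2d2a, Cd6 and Tespa1), which is a gap of the set used and not of RefSeq. Each window holds the 250 bases before the most upstream start of the gene, 5′ to 3′ on its strand, and capitals mark matches, on either strand, to GGAAA (the core bound by NFAT, a calcium-dependent factor) or CTTTGA (bound by TCF and LEF factors). The windows are chr10:28668110-28668359 (plus strand) for Themis, chr9:41158063-41158312 (minus strand) for Ubash3b and chr5:72752778-72753027 (minus strand) for Txk.
Themis: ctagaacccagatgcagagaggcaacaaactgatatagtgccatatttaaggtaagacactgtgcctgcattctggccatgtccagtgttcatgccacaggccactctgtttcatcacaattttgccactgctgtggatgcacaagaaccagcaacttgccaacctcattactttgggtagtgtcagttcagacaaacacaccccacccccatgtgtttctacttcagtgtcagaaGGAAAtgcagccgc
Ubash3b: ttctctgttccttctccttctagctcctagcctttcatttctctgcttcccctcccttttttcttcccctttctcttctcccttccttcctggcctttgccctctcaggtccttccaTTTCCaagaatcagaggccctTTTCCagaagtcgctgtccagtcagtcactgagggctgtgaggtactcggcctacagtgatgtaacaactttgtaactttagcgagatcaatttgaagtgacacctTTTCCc
Txk: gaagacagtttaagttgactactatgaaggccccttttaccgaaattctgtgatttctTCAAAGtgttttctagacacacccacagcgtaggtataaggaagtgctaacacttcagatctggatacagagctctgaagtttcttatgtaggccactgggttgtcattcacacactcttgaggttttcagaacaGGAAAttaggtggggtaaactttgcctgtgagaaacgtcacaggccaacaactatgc
Themis held 1 GGAAA match, 14 bases before the start, Ubash3b held 3, at 133, 112 and 6 bases, and Txk held 1 at 57 bases with 1 CTTTGA match at 192 bases. GGAAA is common: 55.6% of all 32851 windows held it, against 22 of the 33 members with a window (66.7%). CTTTGA stood in 13.8% of all windows and in 6 of the 33 members, TGTGGT (RUNX factors) in 14.0% and 4, and TGANTCA (AP-1) in 6.75% and 0. The window of Prkcq matched none of the 4 motifs. Members entered these shares with 1 window each, whereas the set of all windows was not reduced to 1 per gene. The median GC content was 56.8% in the windows of members and 52.4% in all windows. A match is a description of the letters alone.

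The receptor complex itself showed no call between genotypes in unstimulated cells, in any of its 7 genes. Cd3d, a CD3 chain, had 1504 and 1310 normalized counts in WT and 1084 and 1099 in DKO, a log2 difference of -0.36 (SE 0.18, limma adjusted p = 0.260). Cd6, a surface receptor that tunes signalling, had 4920 and 3569 against 2756 and 3050 (log2 difference -0.53, SE 0.19, limma adjusted p = 0.139). Both genes stood lower in DKO without overlap, which falls short of the test. Cd3e had 3424 and 3294 against 3042 and 3156, and the coreceptor Cd4 had 10760 and 8918 against 10363 and 7005. The zeta chain gene Cd247 had 1932 and 1696 against 1746 and 2141, and 55.9% of its exon length is shared with Pou2f1 on the opposite strand, so its counts are uncertain. The exon lengths and overlaps are those of GENCODE vM1.

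Among the kinases, none was called in unstimulated cells. Lck, the first kinase of the cascade, had 2950 and 2409 normalized counts in WT and 2722 and 2363 in DKO, and the groups overlapped. Zap70, which binds the phosphorylated chains, had 884 and 700 against 511 and 500 (log2 difference -0.64, SE 0.22, limma adjusted p = 0.123). Txk, a Tec family kinase, had 2478 and 2996 against 3870 and 6491 (log2 difference 0.88, SE 0.28, limma adjusted p = 0.104). The Txk difference exceeded the spread of WT, and the DKO libraries also differed from each other. Fyn, a kinase related to Lck, had 4023 and 3991 against 3428 and 4009, and the phosphatase gene Ptprc (CD45) had 56011 and 58483 against 55173 and 63469. Per kilobase of exon, Ptprc was the highest of the 39 members with a length, at 9843 normalized counts per kb in unstimulated WT, and Dgka came next at 3131 per kb.

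Among the 8 adaptors, Themis and Tespa1 were the ones called in unstimulated cells. Grb2, which couples receptors to the Ras activator Sos1, had 958 and 854 normalized counts in WT and 454 and 693 in DKO (log2 difference -0.69, SE 0.25, limma adjusted p = 0.139). Grap2 (Gads), which bridges Lat and Lcp2, had 1035 and 1111 against 1483 and 1985 (log2 difference 0.68, SE 0.25, limma adjusted p = 0.150). Grb2 and Grap2 are related adaptors, and their values stood on opposite sides of WT. Lat had 2431 and 1988 against 1762 and 2256. Lcp2 had 6822 and 6299 against 6402 and 3884, where DKO replicate 2 accounted for the low value.

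The 8 effectors included 2 calls, Prkcq and Malt1. Bcl10, the partner of Malt1, had 3066 and 2860 normalized counts in unstimulated WT and 1722 and 3267 in DKO, so the DKO libraries lay on both sides of WT. Plcg1 had 3499 and 3068 against 3604 and 4256 (log2 difference 0.26, SE 0.18, limma adjusted p = 0.456). Rasgrp1, which activates Ras on diacylglycerol, had 8192 and 8680 against 10382 and 9466. Its libraries did not overlap and it was not called. Vav1, an exchange factor, had 884 and 851 against 1485 and 986, and the DKO replicates differed from each other.

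Of the 12 negative regulators, Ubash3b and Sla were called in unstimulated cells. Pag1, an adaptor that brings the inhibitory kinase Csk to Lck, had 2232 and 2343 normalized counts in WT and 3066 and 5095 in DKO (log2 difference 0.79, SE 0.25, limma adjusted p = 0.0998). Dgka, a kinase that removes diacylglycerol, had 8851 and 8732 against 15489 and 13828 (log2 difference 0.74, SE 0.25, limma adjusted p = 0.117). Both were higher in DKO without overlap and neither passed. Ptpn22, a phosphatase that acts on Lck and Zap70, had 7313 and 9029 against 4516 and 6754 (log2 difference -0.56, SE 0.26, limma adjusted p = 0.243). The ubiquitin ligase gene Cblb differed most between the DKO replicates, at 5386 and 15084, against 6284 and 7838 in WT. Ubash3a, the T cell relative of Ubash3b, had 1541 and 1663 against 1394 and 1636, so the 2 relatives did not move alike. The phosphatase gene Ptpn6 (SHP-1) had 835 and 722 against 1274 and 747, so the groups overlapped and the DKO replicates differed from each other.

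The members not yet described are given by their range over the 8 libraries. The CD3 chain gene Cd3g ranged from 1062 to 2651 normalized counts and Cd5, an inhibitory coreceptor, from 2221 to 3717. The adaptors Nck1 and Sh2d2a ranged from 557 to 919 and from 3099 to 4632, and the effectors Sos1 and Was, the latter a regulator of actin, from 979 to 3196 and from 420 to 817. The ubiquitin ligase gene Cbl ranged from 4868 to 6784, the diacylglycerol kinase gene Dgkz from 395 to 735 and the kinase gene Csk from 666 to 1042. Sla2, an adaptor related to Sla, ranged from 144 to 369. None of these 10 was called between genotypes.

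Over all 40 members the unstimulated DKO cells were not shifted one way. The DKO pair stood clear above the WT pair for 11 members (27.5%) and clear below it for 10 (25%), against 26.5% and 27.1% of all genes. At an unadjusted p under 0.05 and 1.5-fold, 7 members were higher and 5 lower, against 8.68% and 11.1% of all genes. The median log2 difference was -0.08, against -0.01 over all genes, and it turned to 0.08 when libraries were scaled to equal upper quartiles. Without DKO replicate 1, 9 members were called (Txk, Themis, Prkcq, Sos1, Cblb and Pag1 higher, and Lcp2, Ubash3b and Sla lower), with the remaining DKO library assumed to vary like the others. Of all genes, 1.15% were then called higher and 3.89% lower. The remaining DKO library stood above both WT libraries for 16 members (against 42.8% of all genes) and below both for 15 (against 40.1%). Past the unadjusted p and 1.5-fold were then 9 higher (against 6.56%) and 6 lower (against 11.5%). None of the 6 calls held when either unstimulated WT library was left out, and only part of them held when a stimulated WT library was. Without stimulated WT replicate 1, fewer of all genes were called too. The share of all genes called without either unstimulated WT library is not given here. The loss of the 6 calls is therefore not read as a result about the members.

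**Figure D2:**
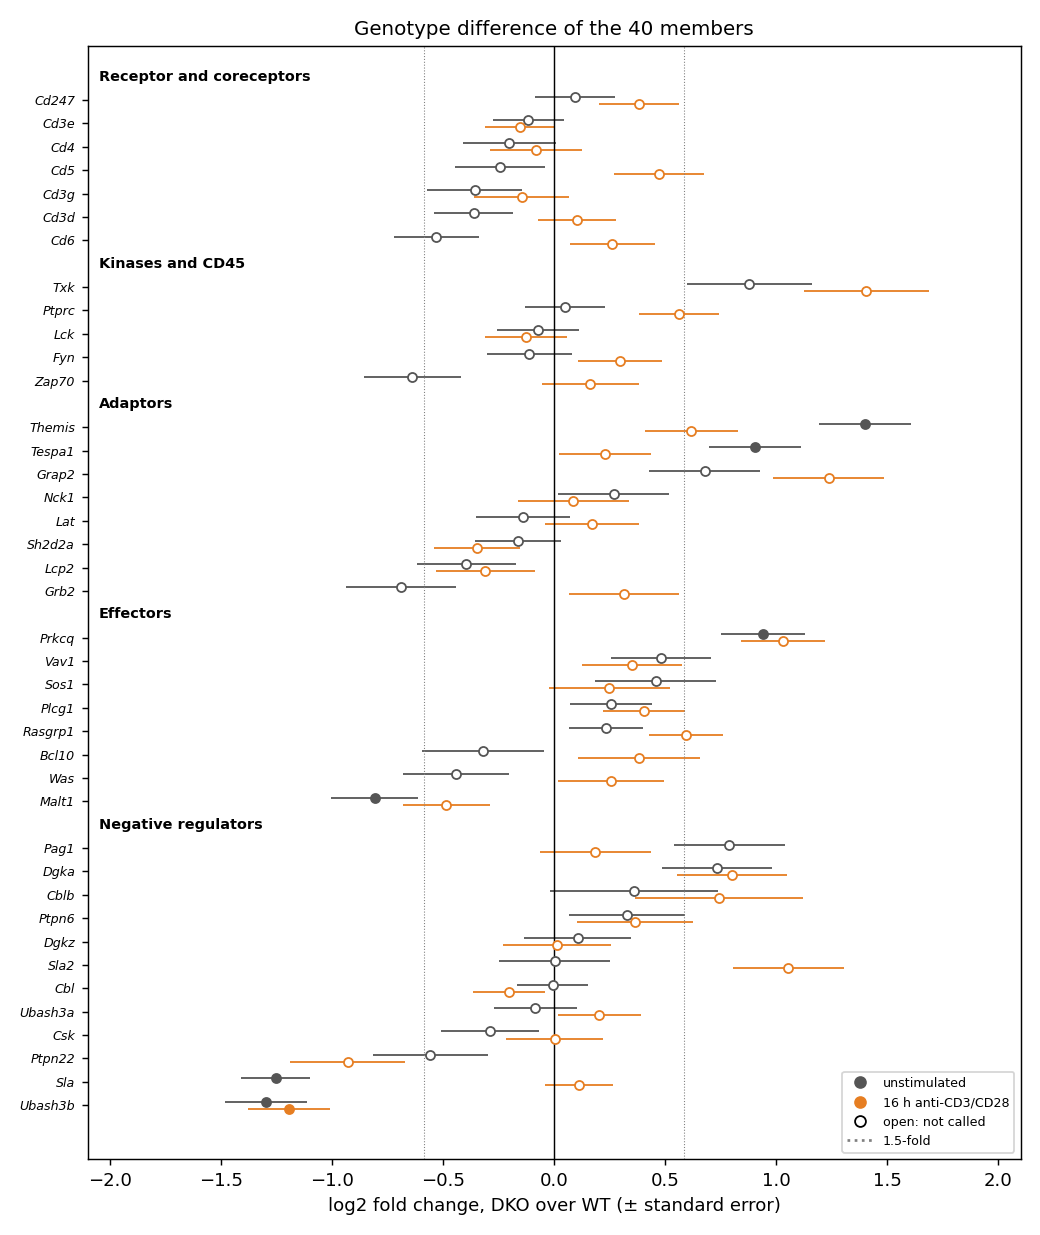
Log2 fold change of DKO over WT (x axis, bars ± standard error) of each of the 40 members (y axis, grouped by role) in unstimulated cells (grey) and after 16 h (orange), where filled points were called and dotted lines mark 1.5-fold. Grey points lie on both sides of 0, and 30 of the 40 orange points lie above 0.

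After 16 h of stimulation, 1 member was called between genotypes, Ubash3b, which fell in DKO. Of all genes, 0.162% were called higher and 0.110% lower. Ubash3b had 1127 and 1418 normalized counts in stimulated WT and 577 and 529 in stimulated DKO, with no overlap. The log2 difference was -1.19 (SE 0.18, limma adjusted p = 0.0392), close to its value without stimulation, and 0 members were called higher at that threshold. At an unadjusted p under 0.05 and 1.5-fold, 7 members were higher (5.60% of all genes) and 2 lower (6.95% of all genes). The call of Ubash3b was lost in 9 of 22 alternatives, among them edgeR's quasi-likelihood test and a fit of the 4 stimulated libraries alone.

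The members nearest to the threshold after stimulation belong to several roles. Txk had 602 and 840 normalized counts in stimulated WT and 1595 and 2229 in stimulated DKO (log2 difference 1.40, SE 0.28, limma adjusted p = 0.0650). Grap2 had 307 and 417 against 705 and 1010 (log2 difference 1.24, SE 0.25, limma adjusted p = 0.0682). Prkcq had 1627 and 1789 against 2985 and 4075 (log2 difference 1.03, SE 0.19, limma adjusted p = 0.0541). In all 3 genes the lower DKO library exceeded the higher WT library by over 1.5 times. Sla2 had 163 and 144 against 276 and 369 (log2 difference 1.05, SE 0.25, limma adjusted p = 0.0993), and 23.6% of its exon length is shared with a gene on the opposite strand. Rasgrp1 had 4024 and 4480 against 6012 and 6830 (log2 difference 0.59, SE 0.17, limma adjusted p = 0.146). Ptpn22 had 3390 and 3187 against 2181 and 1364 (log2 difference -0.93, SE 0.26, limma adjusted p = 0.147). DESeq2 on the reads recovered from the table called Txk, Grap2, Prkcq, Sla2 and Dgka higher and Ubash3b and Ptpn22 lower, 7 members in all, while it called 0.784% of all genes in its fit higher and 0.971% lower. Without stimulated DKO replicate 1, limma called 5 members higher and 2 lower (against 1.37% and 3.57% of all genes), and without stimulated WT replicate 1 it called 0 members and 0 of all genes. The sign was negative for 11 members without the former (against 48.2% of all genes) and for 11 without the latter (against 49.5%). Leaving out unstimulated DKO replicate 1 alters this contrast through the shared spread alone, and the sign stayed positive for 30 members (against 51.4% of all genes).

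Several unstimulated differences were smaller at 16 h. Themis had 486 and 368 normalized counts in stimulated WT and 645 and 654 in stimulated DKO (log2 difference 0.62, SE 0.21, limma adjusted p = 0.209). Tespa1 had 431 and 390 against 456 and 507 (log2 difference 0.23, SE 0.21, limma adjusted p = 0.683). Sla had 3610 and 3465 against 3858 and 3791 (log2 difference 0.11, SE 0.15, limma adjusted p = 0.807). These 3 genes were called without stimulation, and with it none passed. Malt1 had 6857 and 6244 against 5555 and 3931 (log2 difference -0.49, SE 0.20, limma adjusted p = 0.299), where the DKO replicates differed from each other.

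Members with an unstimulated difference short of the threshold kept various positions at 16 h. Dgka had 2403 and 3049 normalized counts in stimulated WT and 3588 and 6219 in stimulated DKO (log2 difference 0.80, SE 0.25, limma adjusted p = 0.174), and its DKO replicates differed most of all members. Pag1 had 894 and 1053 against 978 and 1247, and Cblb 2966 and 2559 against 5100 and 4158. Pag1 overlapped and Cblb did not. Bcl10 had 761 and 927 against 1038 and 1155, Fyn 1819 and 1639 against 1838 and 2448, and Plcg1 1451 and 1510 against 1761 and 2176. All 3 genes stood above WT without overlap. Cd6 had 2057 and 2010 against 2362 and 2518, Grb2 351 and 376 against 407 and 502, Cd3d 1009 and 1062 against 1128 and 1097, and Zap70 539 and 507 against 663 and 517. Zap70 overlapped and the other 3 lay above WT by little.

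Most members nevertheless stood above WT in stimulated DKO cells by a small amount. The 2 DKO values exceeded the 2 WT values without overlap for 24 of the 40 members (60.0%), against 24.3% of all genes, and fell short of them for 8 (20%), against 23.1%. The sign was positive for 30 members, against 51.4% of all genes, and negative for 10, against 48.5%, and the median log2 difference was 0.24, against 0.02. The count of 24 was 20 to 24 under each of 4 other scalings of the libraries, with 22.9% to 25.2% of all genes. It was 29 without stimulated DKO replicate 1 (against 41.3% of all genes) and 25 without stimulated WT replicate 1 (against 36.5%), and the sign was positive for 29 members in either case. Of the 8 effectors, 7 lay above WT in both libraries, Malt1 being the exception. Of the 12 negative regulators, 6 did, and of the 7 receptor genes 4. Examples with more than the median difference are Ptprc, with 32695 and 29315 in WT against 44948 and 46438 in DKO, and Rasgrp1, with 4024 and 4480 against 6012 and 6830. Cd3e is an exception, with 2669 and 2919 in WT against 2508 and 2512 in DKO. The members are not independent, and no p is attached to this count.

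The genotype difference before stimulation and that at 16 h come from separate libraries. Among the 40 members 18 were positive in both (against 32.2% of all genes), 10 negative in both (against 31.2%) and 12 of opposite sign, so 70.0% kept their sign against 63.4% of all genes. Without unstimulated DKO replicate 1, 19 were positive in both (against 34.1%) and 8 negative in both (against 30.8%). Pearson's r across the 40 members was 0.65 and Spearman's rho 0.60, against 0.44 and 0.40 across all genes. These points share libraries and one fit, and genes are not replicates. Ubash3b and Prkcq had nearly equal differences in both conditions, at -1.30 and -1.19 and at 0.94 and 1.03.

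The difference between the 2 genotype effects was tested as an interaction. With limma 0 members were called, as were 0 of all genes, and edgeR called 0 members. At an unadjusted p under 0.05 and 1.5-fold, 6 members were higher and 2 lower, against 4.57% and 3.52% of all genes. Without unstimulated DKO replicate 1 they were 5 and 3 (against 5.75% and 2.94%), and 0 members were called. Sla had the lowest adjusted p, with an interaction of 1.37 (SE 0.22, limma adjusted p = 0.229). Its level fell with stimulation in WT and stood at 3151 in both unstimulated DKO libraries against 3858 and 3791 in the stimulated ones. DESeq2 called this gene alone among the members (adjusted p = 0.00197), and so did limma without unstimulated DKO replicate 2 (adjusted p = 0.0146). The other positive values were 1.05 for Sla2, 1.00 for Grb2, 0.80 for Zap70, 0.79 for Cd6 and 0.71 for Cd5, and the negative ones -0.78 for Themis and -0.68 for Tespa1. None of the 7 passed with limma (adjusted p from 0.556 to 0.590).

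**Figure D3:**
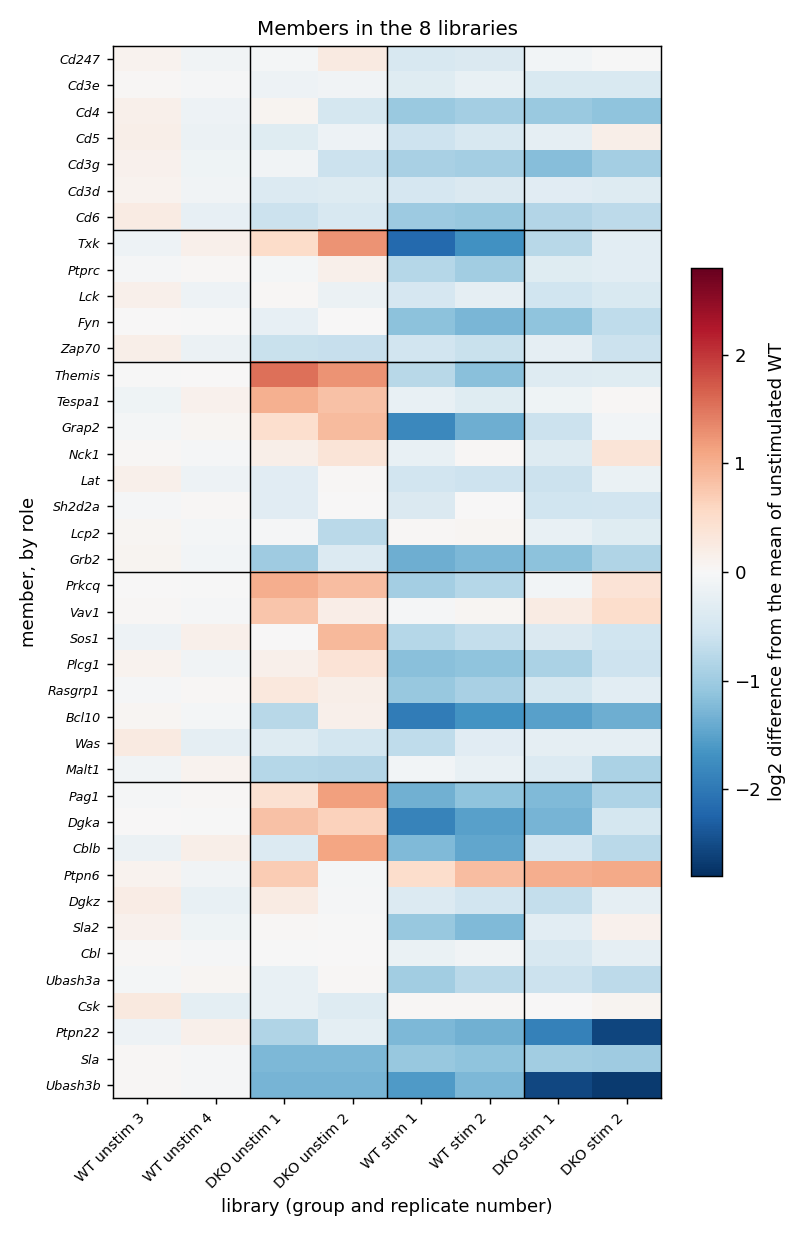
Log2 difference of each member (rows, grouped by role) from the mean of the 2 unstimulated WT libraries, in each of the 8 libraries (columns), with red above and blue below. The stimulated libraries are mostly blue, Ptpn6 is red in all 4 of them, and Cblb differs in color between the 2 unstimulated DKO libraries.

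After 16 h of stimulation a large part of the members stood lower in WT cells. Of the 40, 21 were called lower (52.5%) and 0 higher, against 13.1% of all genes called lower and 10.2% called higher. At an unadjusted p under 0.05 and 1.5-fold, 1 member was higher (Ptpn6), against 16.6% of all genes. The median log2 change was -0.87, against 0.01 over all genes, and both stimulated libraries lay below both unstimulated ones for 33 members (82.5%, against 36.0% of all genes) and above for 1 (against 35.0%). When libraries were scaled to equal totals, which moves the median of all genes to 0.52, the median of the members was -0.35, with 10 called lower and 1 higher (Ptpn6). Relative to that shift the median of the members still lay below that of all genes. At equal totals 22 members lay apart and lower (against 19.1% of all genes) and 10 apart and higher (against 56.9%). The share of all genes called at that scaling is not given here. With edgeR and with DESeq2 on all 8 libraries, 0 members were called higher in either genotype. Of all genes, edgeR called 9.91% higher in WT and 12.2% in DKO, and DESeq2 5.37% and 6.50% of those in its fit. In the paragraphs that follow, changes are those of the deposited scaling. Fewer members were called when any WT library was left out, and without stimulated replicate 1 fewer of all genes were called as well. Without stimulated replicate 1, members apart and lower were 34 (against 43.7% of all genes) and apart and higher 3 (against 43.1%). Leaving out unstimulated DKO replicate 1 bears on this contrast through the shared spread alone, and the sign stayed negative for 36 members (against 49.7% of all genes).

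The calls in WT cells reached every role. Of the 7 receptor genes, 3 fell. Cd4 went from 10760 and 8918 to 4785 and 5033 normalized counts and fell by 1.00 on the log2 scale (SE 0.21, limma adjusted p = 0.00870). Cd6 and Cd3g fell by 1.04 and 0.93 on the log2 scale. Of the kinases and CD45, 3 of 5 fell: Txk by 1.94, Fyn by 1.21 and Ptprc by 0.89 on the log2 scale. Txk went from 2478 and 2996 to 602 and 840, the largest fall of a member (SE 0.28, limma adjusted p = 0.00207). Of the 8 adaptors, 3 fell: Grap2 by 1.58, Grb2 by 1.31 and Themis by 0.97 on the log2 scale. Lat, Lcp2, Nck1 and Sh2d2a, the last an adaptor that binds Lck, were not called.

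Of the 8 effectors, 4 fell in WT cells. Bcl10 went from 3066 and 2860 to 761 and 927 normalized counts (log2 change -1.82, SE 0.27, limma adjusted p = 0.00233). Plcg1 fell by 1.15, Rasgrp1 by 0.99 and Prkcq by 0.88 on the log2 scale. Malt1 stayed at 6857 and 6244, against 6780 and 7730 before, so its change differed from that of its partner Bcl10. Of the 12 negative regulators, 8 fell. Dgka went from 8851 and 8732 to 2403 and 3049 (log2 change -1.70, SE 0.25, limma adjusted p = 0.00208). Ubash3b fell by 1.41, Cblb by 1.35, Ptpn22 by 1.31, Pag1 by 1.24, Sla2 by 1.14, Sla by 1.09 and Ubash3a by 0.87 on the log2 scale. Genes that promote the signal and genes that restrain it were thus both among the calls. Ptpn6 was the member with the largest positive value, at 835 and 722 before and 1091 and 1420 after, and it was not called.

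In DKO cells 16 members were called lower after stimulation and 0 higher by the same test, against 12.0% and 13.0% of all genes. The median log2 change was -0.40, against -0.03 over all genes. Both stimulated libraries lay below both unstimulated ones for 25 members (62.5%, against 30.6% of all genes) and above for 5 (against 30.8%). At an unadjusted p under 0.05 and 1.5-fold, 1 member was higher (Ptpn6), against 18.3% of all genes. With libraries scaled to equal totals, the median of all genes moved to 0.35 and the median of the members was -0.01. Of the members 7 were then called lower and 4 higher (Cd5, Sla, Csk and Ptpn6), and the share of all genes called is not given here. At that scaling 16 members lay apart and lower (against 17.9% of all genes) and 12 apart and higher (against 45.1%). Without stimulated DKO replicate 1 the sign was negative for 29 members (against 50.8% of all genes). Without unstimulated DKO replicate 1 it was negative for 30 (against 50.1%). Members apart and lower were 26 without the former (against 40.7% of all genes) and 29 without the latter (against 40.6%), and those apart and higher 7 in either case (against 39.7% and 41.1%). The sign was positive for 11 members without the former (against 49.2% of all genes) and for 10 without the latter (against 49.9%).

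Pag1 showed the largest fall in DKO cells, from 3066 and 5095 to 978 and 1247 normalized counts (log2 change -1.84, SE 0.25, limma adjusted p = 0.00115). Themis went from 2406 and 1991 to 645 and 654 (log2 change -1.75, SE 0.21, limma adjusted p = 0.000675). Both genes had stood above WT before stimulation. Ptpn22 fell by 1.68, Dgka by 1.63, Txk by 1.41 and Ubash3b by 1.31 on the log2 scale. Bcl10 fell by 1.11, Grap2 by 1.02, Plcg1 by 1.00, Tespa1 by 0.95, Sos1 by 0.94 and Cd4 by 0.88. Fyn fell by 0.80, Prkcq by 0.79, Cd3g by 0.71 and Rasgrp1 by 0.63.

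The stimulation changes of WT and DKO cells come from separate libraries. Called lower in both were 14 members, in WT alone 7 (Cd6, Ptprc, Grb2, Cblb, Ubash3a, Sla and Sla2) and in DKO alone 2 (Tespa1 and Sos1). Cd6 went from 4920 and 3569 to 2057 and 2010 in WT and from 2756 and 3050 to 2362 and 2518 in DKO. A call in one genotype and not in the other is not a difference between them, and the interaction above, which tests that difference, called 0 members. Across the 40 members Pearson's r of the changes was 0.71 and Spearman's rho 0.67, against 0.68 and 0.69 across all genes. Grb2 went from 958 and 854 to 351 and 376 in WT and from 454 and 693 to 407 and 502 in DKO, so the stimulated levels lay closer together than the unstimulated ones. Sla2 went from 369 and 313 to 163 and 144 in WT, and in DKO from 346 and 335 to 276 and 369.

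**Figure D4:**
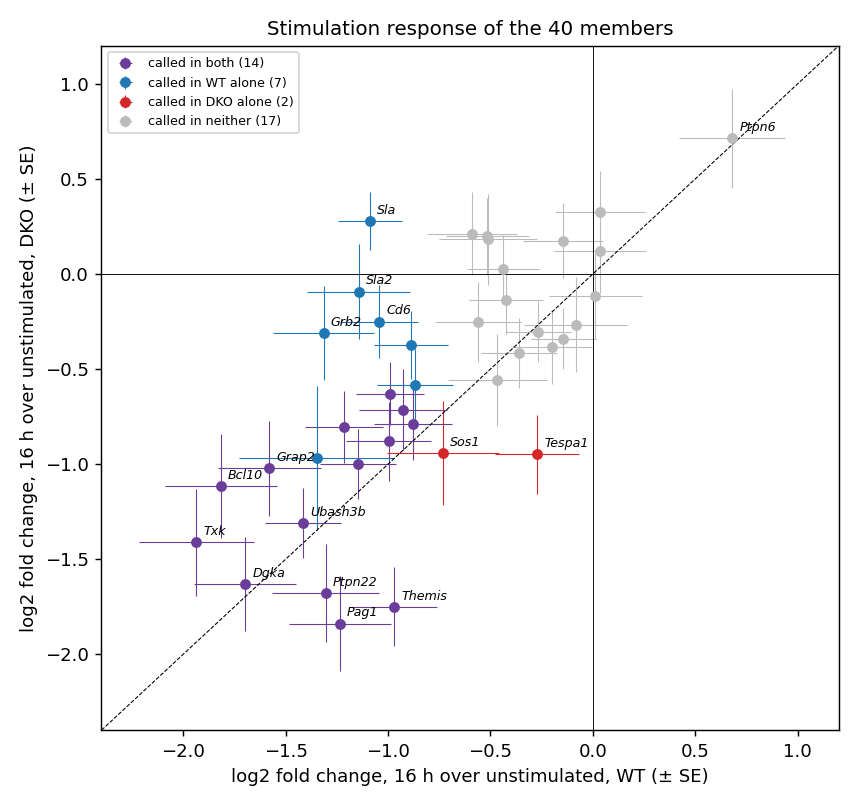
Log2 fold change of 16 h over unstimulated cells in WT (x axis) and DKO (y axis), a point per member with bars ± SE, colored by where the member was called; the dashed line marks equal change. Most points lie in the lower left quadrant, and Sla, Sla2, Grb2 and Cd6 lie above the line.

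Another 45 genes of the same pathway were listed beside the members, of which 44 could be tested (Lime1 was too low). Between genotypes 0 of the 44 were called in unstimulated cells, with 5 higher (11.4%) and 3 lower (6.82%) at an unadjusted p under 0.05 and 1.5-fold, against 8.68% and 11.1% of all genes, and 1 was called in stimulated cells. That gene was Trat1 (TRIM), which encodes a partner of the receptor complex, with 419 and 487 normalized counts in stimulated WT and 1062 and 1458 in stimulated DKO (log2 difference 1.46, SE 0.22, limma adjusted p = 0.0392). In stimulated cells 19 of the 44 lay apart and higher in DKO (43.2%, against 24.3% of all genes) and 8 lower (18.2%, against 23.1%). The sign was positive for 30 (68.2%, against 51.4%), so the lean above WT was not particular to the members. With stimulation 15 of the 44 fell and 1 rose in WT cells (34.1% and 2.27%, against 13.1% and 10.2% of all genes). In DKO cells 18 fell and 5 rose (40.9% and 11.4%, against 12.0% and 13.0%). The gene that rose in WT was Prkca, and those that rose in DKO were Cd2, Trat1, Crk, Prkca and Dok1. Rasgrp2, a relative of Rasgrp1, fell by 4.74 on the log2 scale in WT and fell by 4.67 in DKO. The costimulatory receptor gene Cd28 went from 17335 and 17162 to 7298 and 7087 in WT and from 8749 and 17353 to 5366 and 4463 in DKO, a fall of 1.26 and 1.33 on the log2 scale.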

How the data were processed

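RNA of 8 libraries was measured as 1 table of normalized counts. The deposited values are a signal: the authors divided the read count of each gene by 1 DESeq2 size factor per library. All values were whole multiples of 1 read (tolerance 0.0052 normalized counts), so reads were recovered. The methods name Bowtie, NCBIM37, duplicate removal, HTSeq and a kit without strand, whereas the submitters' notes name STAR 2.7, mm10 and a stranded kit, and which made the table is not known, so overlapping genes are uncertain. Of the 52459 symbols, 28801 match GENCODE vM1 and 35095 match RefSeq GRCm38.p6.

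Genes with a mean of at least 10 (15419) were tested with limma 3.58.1 in R 4.3.3 on log2(value + 1), in 1 model of 4 groups with 2 libraries each and 5 contrasts, with Benjamini-Hochberg adjustment within a contrast; fold changes on this scale understate those of low genes. Alternatives used edgeR 4.0.16 and DESeq2 1.42.0 on recovered reads, other scalings, filters and thresholds, and each library left out. The code was tested on simulated data. The members and lists were chosen with earlier results of these data known. Values in all 8 libraries are given for 20 members: those called between genotypes, those called on stimulation and over 2-fold, and the 2 members of each role with the largest unstimulated genotype difference; other members' values were chosen after they were seen. Intervals for counting error alone were not computed.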

Additional observations from a re-analysis of the deposited data

How the results depend on the processing

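Members called between genotypes in unstimulated cells (6) were 3 with every gene above 0 tested, 3 with the 4 libraries of the contrast alone and 3 at 2-fold, and 0 to 9 with a library left out. In stimulated cells (1) they were 0 with a pseudocount of 0.1, with every gene above 0, with edgeR and with 4 libraries, 2 with a mean of at least 100 (Prkcq added), 5 with quantile normalization, 7 with DESeq2 and 8 with DESeq2 on 4 libraries, and 0 to 7 with a library left out: 7 without stimulated DKO replicate 1, 5 without either unstimulated DKO replicate and 0 without any of the other 5 libraries. For the interaction (0) they were 1 with DESeq2 and 0 to 1 with a library left out. For stimulation in WT (21) they were 11 with equal totals, 11 with equal summed CD3 chains and 10 to 23 with a library left out. For stimulation in DKO (16) they were 7 with 4 libraries, 9 at 2-fold, 10 with equal CD3 chains, and fewer or more with a library left out. With edgeR 16 were called lower (against 12.1% of all genes), and with DESeq2 17 (against 7.05% of those in its fit). For the other settings of this paragraph the share of all genes called is not given here. That share also moved with the library left out, so these counts are not results about the members alone.

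Members lying apart and lower on stimulation in WT (33, against 36.0% of all genes) were 22 with equal totals (against 19.1%) and 21 with equal CD3 chains (against 19.8%), and those apart and higher (1, against 35.0%) were 10 (against 56.9%) and 11 (against 54.9%). In DKO those lower (25, against 30.6%) were 16 with equal totals (against 17.9%), 16 with quantile normalization (against 28.1%) and 17 with equal CD3 chains (against 20.4%), and those higher (5, against 30.8%) were 12 (against 45.1%), 6 (against 32.6%) and 10 (against 42.1%). Signs turned for Fyn in unstimulated cells, at 0.00808 with equal totals, 0.0506 with equal upper quartiles and 0.0481 with equal CD3 chains, and from -0.23 to 0.000763 with a library left out (positive without DKO replicate 1). Sla2 there was -0.00338 with DESeq2, -0.0167 with DESeq2 on 4 libraries and -0.12 to 0.12 with a library left out (negative without WT replicate 4 and without DKO replicate 1). With a library left out Bcl10 there was -0.78 to 0.14 (positive without DKO replicate 1), Cblb -0.38 to 1.10 (negative without DKO replicate 2), and Zap70 in stimulated cells -0.0165 to 0.34 (negative without DKO replicate 1). The cause was not tested, beyond fewer genes or libraries where the alternative itself removes them.

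Equal numbers 1 and 2 link the stimulated groups and the DKO groups. Deviations of the same number correlated at r = 0.17 and 0.26 over genes, and 2 pairs each cannot decide whether the numbers pair the libraries. Replicate 1 had more than replicate 2 of the summed neutrophil markers in unstimulated DKO (1149 and 512 normalized counts), stimulated WT (565 and 276) and stimulated DKO (847 and 155). The same held for the B cell markers and for the CD8 T and NK cell markers. With the replicate block 3 members were called between genotypes in stimulated cells (Grap2 and Prkcq higher, Ubash3b lower) and 18 on stimulation in DKO. The CD3 scaling, DESeq2 on 4 libraries and the counts of members lying apart, of each sign or past an unadjusted p under other scalings or without a replicate 1 were added after seeing the data.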
